A study of Mus musculus with 14 samples.

Results

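The genes described here are 10 enzymes that make bile acids from cholesterol and conjugate them, measured in mouse liver by RNA sequencing. They were taken as the rows of the deposited count table whose symbol is Cyp7a1, Cyp8b1, Cyp27a1, Cyp7b1, Cyp39a1, Hsd3b7, Akr1d1, Amacr, Slc27a5 or Baat, and all 10 were found among its 25212 genes. All 10 also passed the filter on low counts. The livers came from 14 male C57BL/6 mice kept on a high-fat diet from youth, 1 library per liver. In 5 mice with diet-induced obesity (DIO) there was no operation. In 4 mice the common bile duct was tied and the gallbladder was joined to the ileum (GB-IL), so that bile entered the distal small bowel. In 5 mice a Roux-en-Y gastric bypass (RYGB) was made. The labels place all livers at 8 weeks, counted from surgery in the operated mice. No sham-operated liver was analysed here, so bile diversion or bypass and the operation itself cannot be told apart. Libraries held 18223135 to 28656631 counts.

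Bile acids leave the liver in bile, help to absorb fat in the gut, and return to the liver from the ileum. In the classic pathway Cyp7a1 hydroxylates cholesterol and sets the rate of the whole synthesis, and Cyp8b1 then decides how much cholic acid is made against chenodeoxycholic acid and, in mice, the muricholic acids. In the alternative pathway Cyp27a1 oxidizes the side chain first and Cyp7b1 hydroxylates the oxysterol that results. Cyp39a1 hydroxylates another oxysterol. Bile acids returning to the hepatocyte, through the receptor FXR (Nr1h4) and its target SHP (Nr0b2), and the ileal hormone FGF15, through Fgfr4 and Klb, are known to hold Cyp7a1 and Cyp8b1 down.

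In GENCODE M21 on GRCm38 (mm10), Cyp7a1 (ENSMUSG00000028240) lies at chr4:6265612-6275633 on the minus strand and Cyp8b1 (ENSMUSG00000050445) at chr9:121914356-121916305 on the minus strand. Cyp7b1 (ENSMUSG00000039519) lies at chr3:18071950-18243338 on the minus strand, and Hsd3b7 (ENSMUSG00000042289) at chr7:127800604-127803802 on the plus strand. Hsd3b7 overlaps a further protein-coding model, Gm49388, on the same strand, which has no row in the count table and makes its counts less certain. Also on the same strand, Cyp7b1 overlaps a small nuclear RNA gene (Gm23686), as does Cyp39a1 (Gm25783), and Akr1d1 a processed pseudogene (Gm7463). Of these, only Gm25783 has a row in the count table. RefSeq promoter sequence for GRCm38.p6 was at hand for 4 of the 10 genes. The 250 bases before the start of Cyp8b1 (chr9:121916306-121916555, minus strand) are shown because they are short, well studied, and hold runs of letters read by nuclear receptors that were measured in the same livers. Capitals mark, from left to right, CAAAGTCCA, a type of site read by HNF4A, joined to CAAGGNCA, a type read by NR5A2 (LRH-1), and then a TATA box (TATAAA).
Cyp8b1: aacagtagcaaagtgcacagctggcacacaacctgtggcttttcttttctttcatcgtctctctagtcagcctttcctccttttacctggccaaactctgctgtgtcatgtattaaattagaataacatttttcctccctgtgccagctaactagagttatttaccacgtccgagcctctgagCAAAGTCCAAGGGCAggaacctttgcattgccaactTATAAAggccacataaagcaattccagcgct

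The HNF4A type of site covers bases 67 to 59 before the start and the NR5A2 type bases 60 to 53, so the sites share their edge, and the TATA box covers bases 31 to 26. Searched on both strands of all 32851 promoters cut to the same 250 bases, CAAAGTCCA was found in 0.384%, CAAGGNCA in 5.53%, TATAAA in 12.4%, and both receptor types together in 0.0335%. None of these letters was found in the same window of Cyp27a1, Akr1d1 or Hsd3b7. Hnf4a itself lay between 522 and 845 CPM over the 14 livers. Nr5a2 lay between 29.4 and 62.9 CPM in DIO and RYGB, and at 16.9, 21, 37.6 and 43.3 CPM in GB-IL livers 1 to 4.

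Over all genes, the GB-IL livers varied more among themselves than those of the other groups. Their biological coefficient of variation, common to all genes, was 0.542, against 0.244 in DIO and 0.295 in RYGB. Principal component 1 took up 48.5% of the variance and placed GB-IL liver 1 at -134, liver 2 at -106, liver 3 at -20.1 and liver 4 at 35.3, the last within the DIO range of 21.9 to 45.7. It placed RYGB livers 1 to 5 at 2.14, 24.3, 33.8, 32.2 and -17.4, so livers 1 and 5 were also outside that range. Pancreatic transcripts were present in GB-IL liver 1, with Ctrb1 at 865 CPM against at most 0.394 CPM elsewhere. The 11 macrophage markers counted had a fitted difference above 0 for GB-IL against DIO in 11 of 11 cases, 6 of them past the test described below, and summed to 1360, 1337, 2344 and 834 CPM in GB-IL livers 1 to 4 against 401 to 712 CPM in DIO. They summed to 419 to 1054 CPM in RYGB, with the most in liver 1, above GB-IL liver 4. The 12 hepatocyte markers summed to 106281, 136875, 95998 and 128032 CPM in these livers against 127518 to 154930 CPM in DIO. Much of this sum was Alb, at 69894, 87465, 57306 and 92394 CPM in GB-IL livers 1 to 4 against 91668 to 107942 CPM in DIO. Of the 12 markers 10 were below 0 and 2 above for GB-IL against DIO, and none was called. Without GB-IL liver 4, Ahsg was called higher and Apob and Ttr lower, in a fit that called 24.6% of all genes. A change in the number of hepatocytes was not tested. In bulk liver it cannot be told apart from a change in RNA per hepatocyte. Values are counts scaled by edgeR's TMM method, in CPM (counts relative to the scaled total), or per length (RPKM). Calls among the enzymes and lists below that change without GB-IL liver 4 are given beside them. Without GB-IL liver 1, without GB-IL liver 2, or without any 1 DIO liver, 0 genes passed the test for GB-IL against DIO. The marker calls made from all livers for this comparison, here and below, are lost in those fits.

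Per length, the enzyme of conjugation Slc27a5 was the most abundant of the 10 in DIO, at 429 ± 54.2 RPKM (SD, n = 5). Cyp27a1 followed at 230 ± 52.7 RPKM, Cyp8b1 at 203 ± 85.2 RPKM, Hsd3b7 at 155 ± 28.3 RPKM and Baat at 125 ± 13.0 RPKM. The remaining 5 enzymes stood lower, from Akr1d1 at 62.2 ± 16.2 RPKM, through Cyp7b1 at 59.6 ± 32.1 RPKM and Amacr at 48.3 ± 4.65 RPKM, to Cyp7a1 at 34.0 ± 16.5 RPKM and Cyp39a1 at 18.7 ± 7.17 RPKM. Only 2 steps of this order separated the DIO livers without overlap, that from Slc27a5 to Cyp27a1 and that from Baat to Akr1d1; the ranges of all other neighbours overlapped. Thus the enzyme that limits the rate was, by its mean in DIO, among the least abundant of these 10 transcripts. In GB-IL Slc27a5 was again highest at 392 ± 48.6 RPKM, apart from Cyp27a1 at 182 ± 49.3 RPKM, and below it every pair of neighbours overlapped. In RYGB all neighbours overlapped, with Slc27a5 at 310 ± 92.6 RPKM and Cyp8b1 second at 242 ± 116 RPKM.

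**Figure D1:**
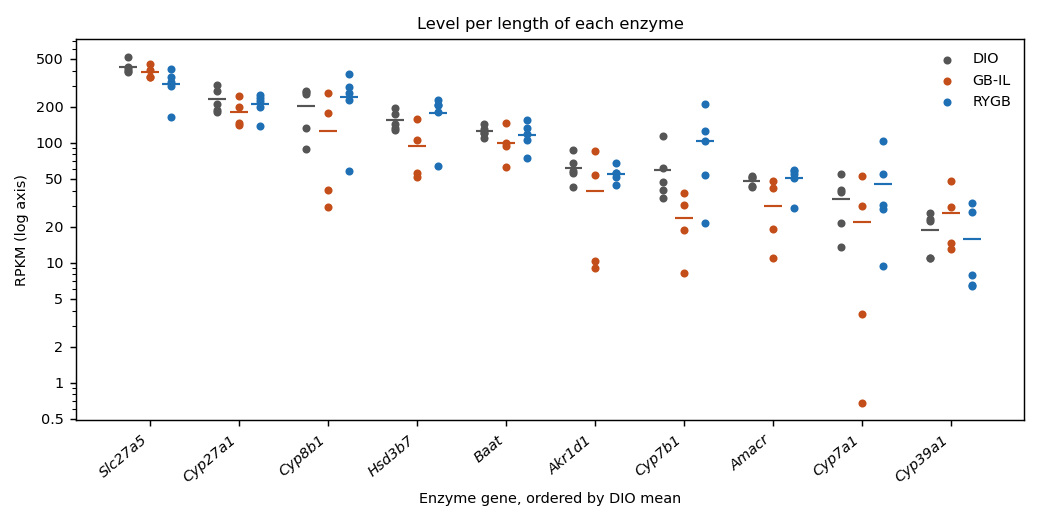
Level per length (RPKM, log axis) of each enzyme, ordered by its DIO mean; each point is 1 liver and each bar a group mean. Slc27a5 is highest on average in all 3 groups, and the GB-IL points of Cyp7a1 reach down to 0.680 RPKM.

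The comparison of GB-IL with DIO asks how these enzymes differed in mice operated on to divert bile to the ileum. The fitted difference was below 0 for 9 of the 10 genes, with a median log2 fold change of -0.65 against 0.04 over all 14252 genes tested, yet none of the 10 passed edgeR's quasi-likelihood test at a Benjamini-Hochberg false discovery rate (FDR) of 0.05. Over all genes 3.26% were called, 3.15% higher and 0.112% lower in GB-IL. At an unadjusted p under 0.05 Cyp7b1 was the 1 member counted, where 23.1% of all genes were, and DESeq2 and voom with sample quality weights each called 0 members, where they called 8.06% and 4.13% of all genes. For none of the 10 enzymes were the GB-IL livers clear of the DIO livers, against 4.17% of all genes.

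The comparison of RYGB with DIO asks the same of mice operated on for gastric bypass. Of the 10 enzymes 5 were above and 5 below 0, the median was -0.01 on the log2 scale against 0.01 over all genes, and none passed the quasi-likelihood test, where 0.0% of all genes were called in either direction. At an unadjusted p under 0.05 0 members were counted against 8.71% of all genes. DESeq2 called 0 members and 0.596% of all genes, and voom with quality weights called 1, Cyp39a1, where it called 11.9% of all genes. No enzyme separated RYGB from DIO without overlap, against 3.53% of all genes.

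GB-IL was compared with RYGB directly, since both operations change the flow of bile. Here 8 of the 10 enzymes were lower in GB-IL, with a median of -0.62 on the log2 scale against 0.03 over all genes, and again no member passed the test, where 0.0% of all genes were called. At an unadjusted p under 0.05 3 members were counted, Cyp7b1, Hsd3b7 and Amacr, all lower in GB-IL, where 22.1% of all genes were counted and 6.77% were lower. DESeq2 called 1 member, Cyp7b1, where it called 5.44% of all genes, and voom called 0, where it called 0.807%. None of the 10 separated the groups without overlap, against 2.84% of all genes. The GB-IL and RYGB differences from DIO share the same 5 DIO livers.

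Without GB-IL liver 4, the GB-IL liver nearest to DIO, Hsd3b7 passed the quasi-likelihood test against DIO and both Hsd3b7 and Cyp7b1 passed it against RYGB, all lower in GB-IL. In that fit 9.27% and 8.09% of all genes were called lower in the same comparisons, and 24.6% and 21.5% in either direction. These calls came from 3 GB-IL livers, with the spread shared by all groups. When GB-IL liver 1 or liver 2 was left out instead, 0 of all genes were called in either comparison.

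**Figure D2:**
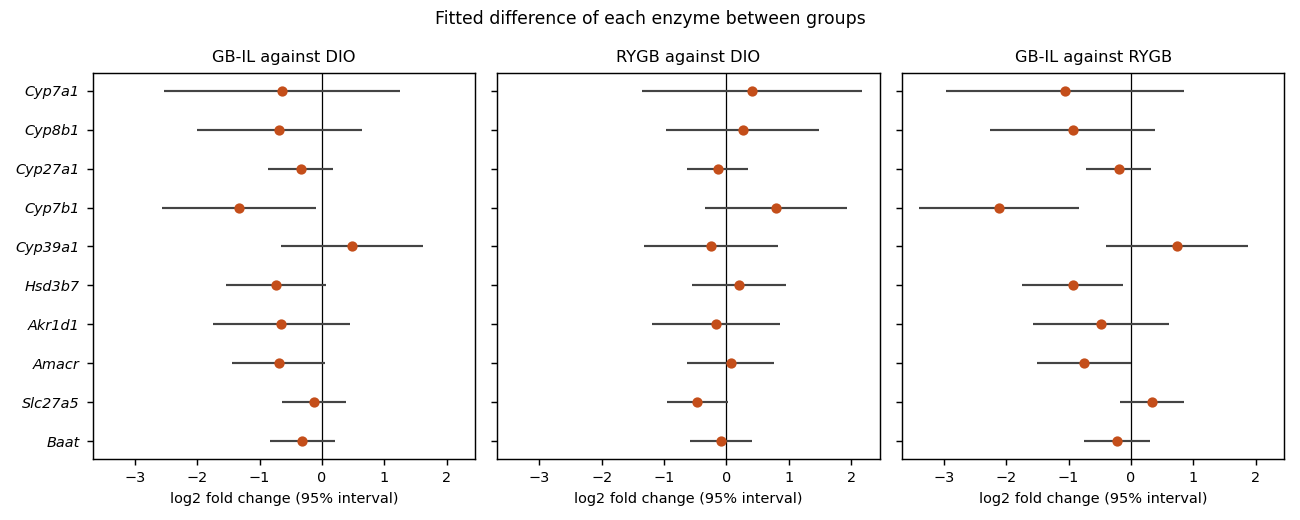
Fitted log2 fold change of each enzyme (point) with its 95% interval (line) in the 3 comparisons, first group minus second. Most intervals span 0; those of Cyp7b1 in both GB-IL comparisons and of Hsd3b7 and Amacr against RYGB lie below 0 before adjustment over all genes.

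Cyp7a1, the rate-limiting step of the classic pathway, had the widest spread of the 10. In GB-IL livers 1 to 4 it stood at 2.84, 15.6, 221 and 123 CPM, from 54, 276, 5220 and 3337 counts. In DIO livers 1 to 5 it stood at 56.9, 163, 90.2, 231 and 169 CPM, and in RYGB livers 1 to 5 at 432, 232, 128, 39.5 and 117 CPM. GB-IL livers 1 and 2 were below every other liver, whereas livers 3 and 4 of the same group sat inside the DIO range, so GB-IL held both the lowest Cyp7a1 of the series and levels like those of DIO. The highest GB-IL liver was 78.0-fold above the lowest, against 4.05-fold in DIO and 10.9-fold in RYGB. The fitted log2 fold change was -0.65 (SE 0.89, 95% interval -2.54 to 1.25, adjusted p = 0.658, edgeR with Benjamini-Hochberg) for GB-IL against DIO and 0.42 (SE 0.83, interval -1.35 to 2.18, adjusted p = 0.917) for RYGB against DIO. Against RYGB, GB-IL was -1.06 (SE 0.90, adjusted p = 0.472). Leaving out GB-IL liver 3 moved the first value to -1.59, and leaving out liver 1 of that group to -0.26, with no call in either. RYGB liver 1, the highest of the series, set the sign of the value for RYGB against DIO: without it the log2 fold change was -0.14.

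Cyp7a1 is known to follow the daily clock, and the clock genes differed between livers of 1 group and between most RYGB and most DIO livers. Arntl, a clock gene, lay between 12.1 and 26.3 CPM in RYGB livers 2 to 5 and between 1.36 and 4.66 CPM in DIO livers 2 to 5. RYGB liver 1, at 1.97 CPM, and DIO liver 1, at 15.6 CPM, went the other way. Of 14 clock genes tested 0 were called for RYGB against DIO. Dbp, a clock output gene, stood at 9.53, 95, 111, 76.7 and 50.7 CPM in DIO livers 1 to 5, at 21, 50.0, 70.1 and 80.1 CPM in GB-IL livers 1 to 4 and at 97.1, 14, 2.71, 33.8 and 13.3 CPM in RYGB livers 1 to 5. The lowest Dbp of DIO was in liver 1, which also had the lowest Cyp7a1 of DIO, and the highest Dbp of RYGB was in liver 1, with the highest Cyp7a1 of RYGB. In GB-IL the liver with the lowest Dbp also had the lowest Cyp7a1. Other livers did not match: DIO liver 3, with the highest Dbp of DIO, had the second lowest Cyp7a1 of its group, and RYGB liver 4, with the lowest Cyp7a1 of RYGB, had the second highest Dbp. The part of the clock in these differences was not tested, and the hour at which each liver was taken is not given in the sources used here.

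Cyp8b1, the enzyme that directs synthesis to cholic acid, had its lowest value in another liver than Cyp7a1, although GB-IL liver 2 was second lowest of the series for both. It stood at 347, 78.4, 57.2 and 505 CPM in GB-IL livers 1 to 4. In DIO livers 1 to 5 it stood at 500.3, 174, 259, 519.6 and 524 CPM, and in RYGB livers 1 to 5 at 573, 504, 728, 444 and 114 CPM. GB-IL livers 2 and 3 and RYGB liver 5 were below all DIO livers, and 2 RYGB livers, 1 and 3, were above them. GB-IL liver 1, with hardly any Cyp7a1, kept Cyp8b1 inside the DIO range, and GB-IL liver 3 had the least Cyp8b1 of the series beside an ample level of Cyp7a1. Its log2 fold change was -0.68 (SE 0.62, adjusted p = 0.493, edgeR) for GB-IL against DIO, 0.26 (SE 0.58, adjusted p = 0.926) for RYGB against DIO and -0.94 (SE 0.62, adjusted p = 0.367) for GB-IL against RYGB. Voom with quality weights put the GB-IL values at -2.06 (adjusted p = 0.058) against DIO and -2.20 (adjusted p = 0.0919) against RYGB, and without GB-IL liver 4 edgeR put them at -1.31 and -1.57.

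**Figure D3:**
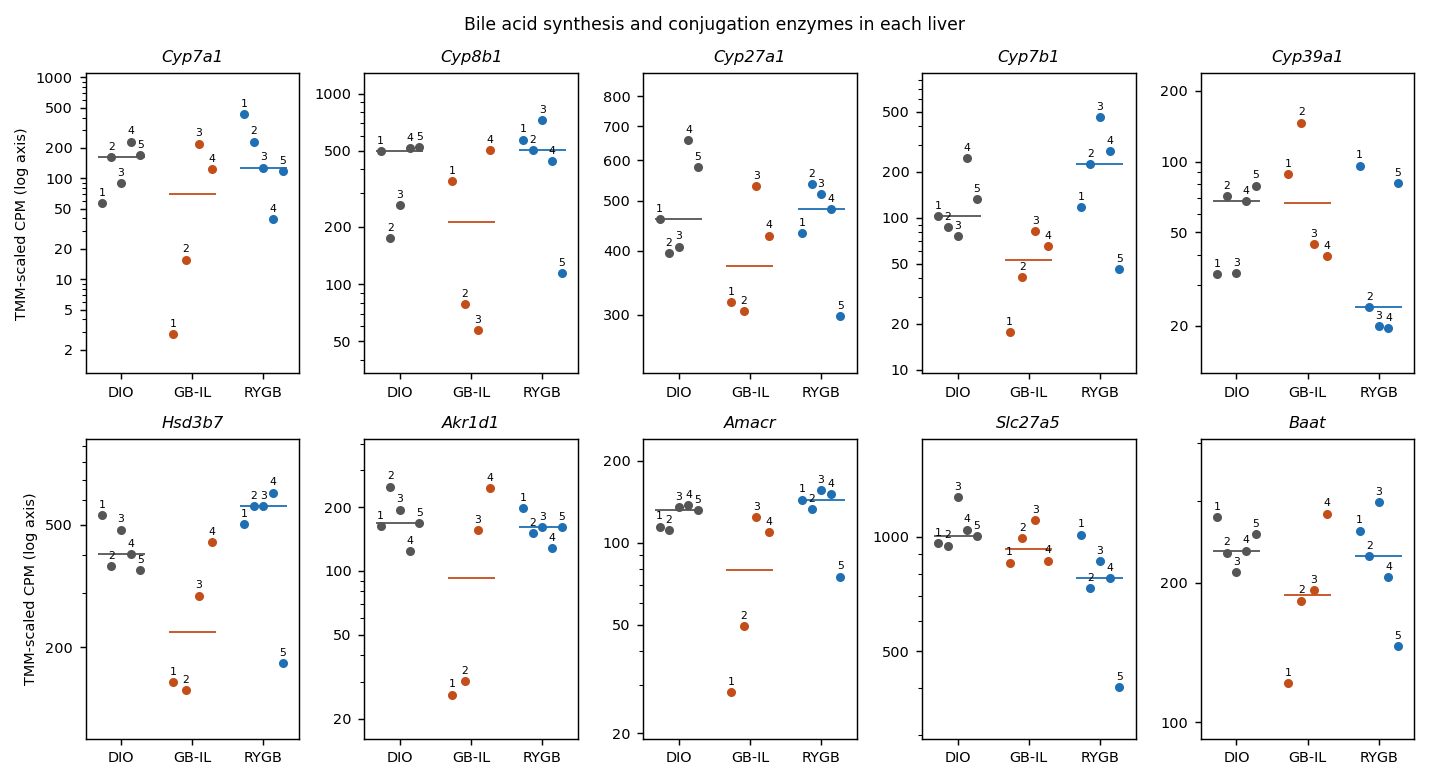
Level of each enzyme in each liver (TMM-scaled CPM, log axis); points carry the liver's number and bars are group medians. GB-IL livers 1 and 2 are the lowest 2 of their group for Cyp7a1, Cyp7b1, Hsd3b7, Akr1d1 and Amacr and the highest 2 for Cyp39a1.

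Within a liver, the ratio of Cyp8b1 to Cyp7a1 does not depend on the scaling between libraries. Per length it was 262, 10.8, 0.553 and 8.78 in GB-IL livers 1 to 4. In DIO it ran from 2.29 to 18.8, and in RYGB from 2.08 to 24. Both the highest and the lowest ratio of the series were thus in GB-IL, with the other GB-IL livers inside the DIO range. The mean log2 ratio was 3.43 ± 3.63 (SD, n = 4) in GB-IL, 2.61 ± 1.09 (n = 5) in DIO and 2.60 ± 1.47 (n = 5) in RYGB, differences smaller than the spread within GB-IL.

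Cyp27a1, the sterol hydroxylase that opens the alternative pathway and also cuts into the side chain in the classic one, varied little. It lay between 305 and 534 CPM in GB-IL, 395 and 657 CPM in DIO, and 298 and 539 CPM in RYGB, and its log2 fold change was -0.34 (SE 0.25, adjusted p = 0.394) for GB-IL against DIO and -0.14 (SE 0.23, adjusted p = 0.896) for RYGB against DIO in edgeR's fit. GB-IL livers 1 and 2 and RYGB liver 5 were the livers below the DIO range.

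Cyp7b1, which hydroxylates the oxysterols made by Cyp27a1, showed the largest fitted difference of the 10 in each of the 3 comparisons. It stood at 17.7, 40.7, 82.1 and 65.3 CPM in GB-IL livers 1 to 4. In DIO livers 1 to 5 it stood at 103, 87.1, 75.5, 247 and 133 CPM, and in RYGB livers 1 to 5 at 117, 225, 457, 273 and 46.1 CPM. Of the GB-IL livers 3 were below all DIO livers, RYGB livers 3 and 4 were above them, and RYGB liver 5 was below them. Cyp7b1 was 2.51-fold lower in GB-IL than in DIO, a log2 fold change of -1.33 (SE 0.58, 95% interval -2.57 to -0.09, adjusted p = 0.191, edgeR with Benjamini-Hochberg), and 4.34-fold lower than in RYGB, at -2.12 (SE 0.60, interval -3.40 to -0.84, adjusted p = 0.101). The latter passed the FDR by DESeq2, at -2.14 (adjusted p = 0.00788), and by edgeR without GB-IL liver 4, at -2.26 (adjusted p = 0.0335), within a range of adjusted p from 0.00788 to 0.269 over the alternatives. For RYGB against DIO the value was 0.79 (SE 0.53, adjusted p = 0.706).

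Cyp39a1 acts on another oxysterol at the same position and was highest in GB-IL liver 2, where Cyp7b1 was low. It stood at 88.7, 146, 44.5 and 39.6 CPM in GB-IL livers 1 to 4. The DIO livers had 33.3, 71.4, 33.6, 67.7 and 79.1 CPM, in the order of their numbers, and the RYGB livers 96.1, 24, 19.9, 19.5 and 81.0 CPM. RYGB divided into livers 2, 3 and 4, below all DIO livers, and livers 1 and 5, above them, and GB-IL livers 1 and 2 were above all DIO livers. The log2 fold change in edgeR's fit was 0.48 (SE 0.53, adjusted p = 0.573) for GB-IL against DIO and -0.25 (SE 0.51, adjusted p = 0.919) for RYGB against DIO. Voom with quality weights put the latter at -1.17 (adjusted p = 0.0494), within a range of adjusted p from 0.0494 to 0.999 over the alternatives.

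Per length, Cyp7b1 exceeded Cyp39a1 in all 5 DIO livers, by 1.72-fold to 5.15-fold. In GB-IL livers 1 and 2 the ratio of Cyp7b1 to Cyp39a1 was 0.281 and 0.392, so that Cyp39a1 was the more abundant, and in livers 3 and 4 it was 2.60 and 2.32. In RYGB livers 1 to 5 it was 1.71, 13.2, 32.3, 19.7 and 0.802. The 3 RYGB livers with the highest ratios were beyond any DIO liver, and RYGB liver 5 was below all of them. This ratio was chosen after its values were seen. The ratio of Cyp7a1 to Cyp7b1, the classic against the alternative hydroxylase, was 0.0832, 0.199, 1.40 and 0.979 in GB-IL livers 1 to 4, ran from 0.287 to 0.972 in DIO, and from 0.0751 to 1.92 in RYGB. The ratio of Cyp7a1 to Cyp27a1 was 0.00465, 0.0266, 0.216 and 0.150 in GB-IL livers 1 to 4, against 0.0643 to 0.215 in DIO and 0.0427 to 0.520 in RYGB.

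Both enzymes that remodel the sterol ring after hydroxylation were low in the same GB-IL livers. Hsd3b7, the oxidoreductase that acts on the hydroxylated intermediates of both pathways, stood at 154, 145, 294 and 439.8 CPM in GB-IL livers 1 to 4. The DIO livers had 538, 368, 482, 401 and 356 CPM, in the order of their numbers, and the RYGB livers 504, 573, 576, 636 and 177 CPM. GB-IL livers 1, 2 and 3 and RYGB liver 5 were below all DIO livers, and RYGB livers 2, 3 and 4 were above them. Hsd3b7 had a log2 fold change of -0.73 (SE 0.38, interval -1.54 to 0.07, adjusted p = 0.253, edgeR) for GB-IL against DIO and -0.93 (SE 0.38, adjusted p = 0.181) for GB-IL against RYGB. Without GB-IL liver 4 these were -1.12 (adjusted p = 0.0413) and -1.33 (adjusted p = 0.0263), the lowest adjusted p over all alternatives. They reached 0.520 and 0.413 under others. For RYGB against DIO the value was 0.20 (SE 0.35, adjusted p = 0.905).

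Akr1d1, the reductase that bends the ring junction of bile acids, stood at 26.0, 30.0, 156 and 246 CPM in GB-IL livers 1 to 4. It lay between 124 and 251 CPM in DIO and between 128 and 198 CPM in RYGB, ranges that overlapped throughout. GB-IL thus divided into livers 1 and 2, below every other liver of the series, and livers 3 and 4, inside the DIO range. Akr1d1 had a log2 fold change of -0.65 (SE 0.52, adjusted p = 0.430, edgeR) for GB-IL against DIO, -0.48 (SE 0.51, adjusted p = 0.570) against RYGB, and -0.17 (SE 0.48, adjusted p = 0.940) for RYGB against DIO. Without GB-IL liver 4 the first value was -1.35 (adjusted p = 0.0561), and leaving out liver 1 of that group instead gave -0.33.

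Amacr, the racemase that readies the side chain for shortening in the peroxisome, was the steadiest enzyme in DIO, at 126 ± 12.1 CPM (SD, n = 5, coefficient of variation 9.62%). In GB-IL livers 1 to 4 it stood at 28.4, 49.6, 124 and 109 CPM, and in RYGB livers 1 to 5 at 144, 133, 156, 151 and 75.2 CPM. GB-IL livers 1, 2 and 4 and RYGB liver 5 were below all DIO livers, liver 4 only just. Amacr had a log2 fold change of -0.69 (SE 0.35, adjusted p = 0.248, edgeR) for GB-IL against DIO, -0.76 (SE 0.35, adjusted p = 0.223) against RYGB, and 0.07 (SE 0.33, adjusted p = 0.968) for RYGB against DIO.

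The conjugation enzymes activate bile acids and join them to an amino acid. Slc27a5, the ligase that activates bile acids with coenzyme A, stood at 855, 993, 1105 and 865 CPM in GB-IL livers 1 to 4. DIO had 961, 948, 1272, 1045 and 1002 CPM, in the order of their numbers, and the RYGB livers 1013, 731, 861, 778 and 401 CPM. GB-IL was spread around the lower end of DIO, and 4 of the 5 RYGB livers were below all DIO livers. Slc27a5 had a log2 fold change of -0.13 (SE 0.24, 95% interval -0.64 to 0.38, adjusted p = 0.748, edgeR) for GB-IL against DIO. It was -0.47 (SE 0.23, interval -0.95 to 0.02, adjusted p = 0.582) for RYGB against DIO. For GB-IL against RYGB it was 0.33 (SE 0.24, adjusted p = 0.399).

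Baat, which joins the activated bile acid to taurine, stood at 121, 183, 193 and 282 CPM in GB-IL livers 1 to 4, between 211 and 278 CPM in DIO and between 146 and 298 CPM in RYGB. GB-IL livers 1, 2 and 3 were below all DIO livers and liver 4 above them. For Baat the log2 fold change was -0.31 (SE 0.25, adjusted p = 0.427, edgeR) for GB-IL against DIO, -0.09 (SE 0.23, adjusted p = 0.936) for RYGB against DIO, and -0.22 (SE 0.25, adjusted p = 0.580) for GB-IL against RYGB. The mean log2 ratio of Baat to Slc27a5 per length was -2.02 ± 0.51 (n = 4) in GB-IL, -1.78 ± 0.30 (n = 5) in DIO and -1.38 ± 0.23 (n = 5) in RYGB, with overlapping ranges.

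Read by liver, most of the enzymes were low in the same livers. In GB-IL livers 1 and 2 alike, 8 of the 10 were below every DIO liver and 1, Cyp39a1, was above. In these livers 37.5% and 35.9% of all genes tested were below the DIO range, and 36.1% and 35.4% above it. In GB-IL livers 3 and 4 the count below was 3 each, against 18.3% and 14.4% of all genes, and the count above was 0 and 1, against 25.6% and 15.6%. In RYGB liver 5 the count below was 7, against 26.1%, and Cyp39a1 was again above, where 27.3% of all genes were. In RYGB liver 1 the count was 0 below, against 16.1%, and 4 above, against 18.2%. RYGB livers 2, 3 and 4 had 2, 2 and 4 below, against 17.7%, 17.6% and 19.1% of all genes, and 2, 5 and 3 above, against 18.1%, 17.1% and 18.6%. Cyp27a1, Cyp7b1, Hsd3b7, Amacr and Baat were below the DIO range and Cyp39a1 above it in all of GB-IL livers 1 and 2 and RYGB liver 5, whereas Cyp7a1 and Akr1d1 sat inside the DIO range in RYGB liver 5, Cyp8b1 did so in GB-IL liver 1 and Slc27a5 in GB-IL liver 2.

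**Figure D4:**
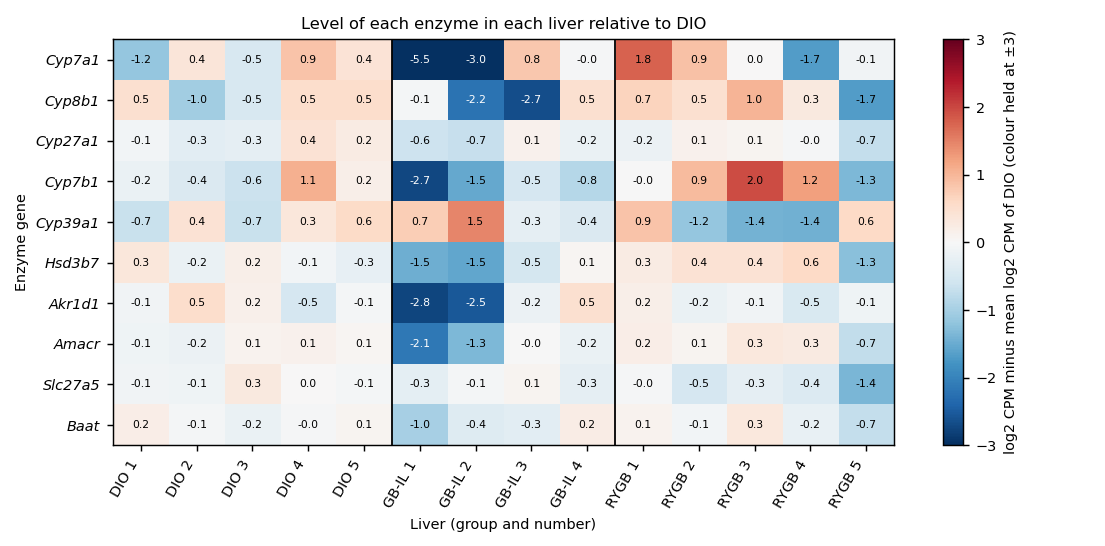
Log2 CPM of each enzyme in each liver minus the mean log2 CPM of the 5 DIO livers; blue is lower and red higher, with colours held at the ends of the scale. GB-IL livers 1 and 2 are low for most enzymes, and RYGB liver 5 is low for 7 of them.

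Of the 45 pairs that the 10 enzymes form, 36 correlated positively over the 14 livers (Pearson's r of log2 CPM), and after Benjamini-Hochberg adjustment over the pairs 21 had a permutation p under 0.05 by Pearson's r and 6 by Spearman's rho. Cyp39a1 was the exception among them. Cyp39a1 and Hsd3b7 were inversely related, with r = -0.77 (permutation p = 0.00139, adjusted 0.00894) and rho = -0.82 (permutation p = 0.00066, adjusted 0.0114). Without the 2 livers farthest from the median of Cyp39a1 r was -0.71, and after removing group means it was -0.76. RYGB liver 1, with much of both, lay off the trend.

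Cyp7b1 and Amacr were positively related across livers, with r = 0.84 (permutation p = 1e-05, the smallest these permutations can give, adjusted 0.00045), rho = 0.89 (adjusted 0.0018), and r = 0.77 without the 2 livers farthest in Cyp7b1. Cyp27a1 and Cyp7b1, the successive steps of the alternative pathway, had r = 0.79 (permutation p = 0.00073, adjusted 0.00783) and rho = 0.79 (adjusted 0.0114), with 0.77 when the 2 farthest livers were left out and 0.87 after removing group means. Cyp7a1 and Cyp8b1, the pair of the classic pathway, had r = 0.15 (permutation p = 0.624) and rho = 0.43 (permutation p = 0.125). For Cyp7a1 and Akr1d1 r was 0.84 (permutation p = 0.00256) but rho 0.35, and without the 2 livers farthest in Cyp7a1 r was 0.17, so this relation rested on GB-IL livers 1 and 2. Of the 21 pairs, 10 had these same livers left out, and in 7 of those r then lay within 0.3 of 0. These 7 were the pairs of Cyp7a1 with Cyp27a1, Akr1d1, Amacr and Baat, and those of Akr1d1 with Hsd3b7, Amacr and Baat. The other pairs had other livers left out, so whether they rest on GB-IL livers 1 and 2 was not tested. With 4 or 5 livers per group no correlation was computed within 1 group.

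**Figure D5:**
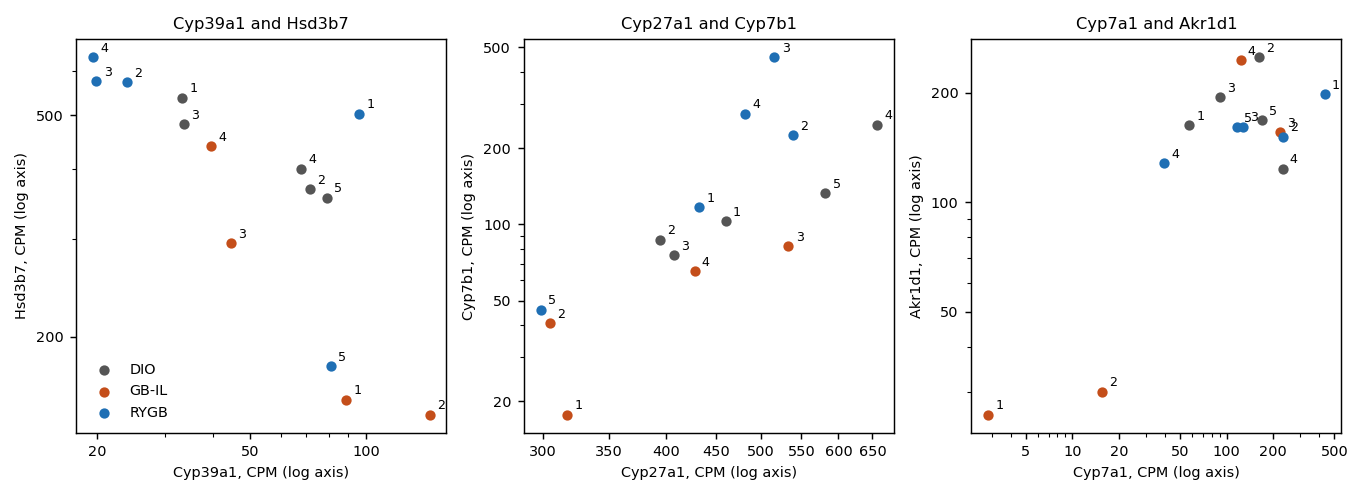
CPM of 3 pairs of enzymes in each liver (both axes log), coloured by group and numbered by liver. Cyp39a1 and Hsd3b7 run in opposite directions (r = -0.77), Cyp27a1 and Cyp7b1 together (r = 0.79), and the relation of Cyp7a1 to Akr1d1 rests on GB-IL livers 1 and 2.

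The genes whose pattern over the 14 livers was most like that of an enzyme were sought among 12689 others with a mean of at least 1 CPM, by Pearson's r of log2 CPM, with no test because they were chosen for the highest values. For Cyp7a1 they were Igfals (r = 0.92), 0610040J01Rik (0.91) and Slc26a1 (0.91), all lowest in GB-IL liver 1. For Cyp8b1 they were Ttc7b (0.92), Snx19 (0.89) and Fam185a (0.87), all lowest in GB-IL liver 2. For Cyp7b1 they were Mug1 (0.91), Susd4 (0.91) and Pja1 (0.90), all lowest in GB-IL liver 1.

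Around the 10 enzymes, 45 further genes of bile acid synthesis, taurine supply, bile acid sensing and sulfation were followed, of which 39 were tested by edgeR and voom. None was called in any of the 3 comparisons by edgeR, with log2 medians of -0.31 in GB-IL and -0.20 in RYGB, each relative to DIO, and -0.16 between the operations, and 12, 3 and 5 of them at an unadjusted p under 0.05. The shares of all genes at that p were 23.1%, 8.71% and 22.1%. DESeq2, which tested 43, 42 and 43 of the 45, called 6, 0 and 4, where it called 8.06%, 0.596% and 5.44% of all genes. Voom with quality weights called 1, 5 and 0, where it called 4.13%, 11.9% and 0.807%. Without GB-IL liver 4, 5 were called higher and 11 lower in GB-IL than in DIO, where 24.6% of all genes were called. Among the lower ones, named after their values were seen, was Scp2, whose product cleaves the side chain in the peroxisome. It stood at 636, 470.2, 2014 and 3834 CPM in GB-IL livers 1 to 4 against 3222 to 3969 CPM in DIO, with a log2 fold change of -1.04 (adjusted p = 0.225, edgeR) in all livers and -1.79 (adjusted p = 0.0125) without GB-IL liver 4. Scp2 was thus far below DIO in GB-IL livers 1 and 2, as Amacr was, and inside the DIO range in liver 4. Cyp2c70, which makes muricholic acids in mice, stood at 98.3, 125, 656 and 214 CPM in GB-IL livers 1 to 4, 200.0 to 279 CPM in DIO and 271 to 395 CPM in RYGB. The liver with the most Cyp2c70, GB-IL liver 3, was the one with the least Cyp8b1. Its log2 fold change was 0.23 (adjusted p = 0.743, edgeR) for GB-IL against DIO and 0.43 (adjusted p = 0.792) for RYGB against DIO.

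Of the genes that hold Cyp7a1 and Cyp8b1 down, SHP (Nr0b2) stood at 3.83, 3.61, 26.7 and 37.2 CPM in GB-IL livers 1 to 4. In DIO livers 1 to 5 it stood at 48.9, 7.13, 23.8, 13.8 and 17.5 CPM, and in RYGB livers 1 to 5 at 32.1, 18.4, 61.5, 49.2 and 18.1 CPM. The livers with the least Cyp7a1, GB-IL 1 and 2, were thus also those with the least Nr0b2. Its log2 fold change was -0.31 (adjusted p = 0.792, edgeR) for GB-IL against DIO and 0.69 (adjusted p = 0.792) for RYGB against DIO. FXR (Nr1h4) stood at 26.2, 50.4, 117 and 118 CPM in GB-IL livers 1 to 4 and between 81.9 and 161 CPM in the other livers, with a log2 fold change of -0.75 (adjusted p = 0.210) for GB-IL against DIO and -0.42 (adjusted p = 0.744) for RYGB against DIO. Fgfr4, the receptor for FGF15, lay between 31.0 and 60.9 CPM in all livers. Its partner Klb stood at 14.6, 17.2, 16.8 and 28.3 CPM in GB-IL livers 1 to 4, 17.9 to 39.6 CPM in DIO and 27 to 37.6 CPM in RYGB, and its log2 fold change was -0.44 (adjusted p = 0.272, edgeR) for GB-IL against DIO, or -0.70 (adjusted p = 0.0386) without GB-IL liver 4.

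The enzymes were low in livers that also differed in the zones and cells of the liver. The 12 markers of pericentral hepatocytes, the zone where bile acid synthesis is mostly placed, summed to 4695, 2640, 11451 and 12050 CPM in GB-IL livers 1 to 4, 10426 to 14284 CPM in DIO, and 15973, 9465, 13805, 13504 and 2897 CPM in RYGB livers 1 to 5. GB-IL livers 1 and 2 and RYGB liver 5 were the 3 lowest. All 12 were below 0 in the fit of GB-IL against DIO, none past the test, with a median of -0.70 on the log2 scale. Without GB-IL liver 4, Cyp2c37 was called lower, at -1.66 (adjusted p = 0.00611, edgeR). The 12 periportal markers had a median of 0.32, 7 of them above 0, and none was called. Without GB-IL liver 4, Cdh1, Arg1 and Sds of that list were called higher and Cyp2f2 lower, in a fit that called 24.6% of all genes. The 7 cholangiocyte markers, of which 5 were tested and 3 were called higher, or 4 without GB-IL liver 4, summed to 321, 259.7, 218 and 58.1 CPM in GB-IL livers 1 to 4 against 30.5 to 65.8 CPM in DIO. Without GB-IL liver 1, GB-IL liver 2 or any 1 DIO liver, no cholangiocyte marker was called for GB-IL against DIO. The part of these zone and cell differences in the enzyme levels was not tested.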

How the data were processed

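Liver RNA of 14 mice was sequenced, 1 library per liver. The authors mapped reads to mm10 (TopHat 2), HTSeq gave the number per gene, and the deposited values are these raw counts. The HTSeq version, its annotation and its strandedness are not given in the sources read, and the submitters' notes also name hg19 with no role. Overlapping genes may share reads. The 2 library kits that the labels name are not assigned to livers, so no kit term was possible. The members and the gene lists were chosen with earlier results of these data known.

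In R 4.3.3 the counts were fitted with edgeR 4.0.16 (filterByExpr, TMM, quasi-likelihood fit of all 14 livers, 1 mean per group, no covariate), limma 3.58.1 (voom) and DESeq2 1.42.0. Benjamini-Hochberg adjustment was over the genes tested in each fit, 14252 in the main edgeR fit and by voom. DESeq2, with its own filter, tested 16715, 15783 and 16244 genes for GB-IL against DIO, RYGB against DIO and GB-IL against RYGB. RPKM used the summed exon length of GENCODE M21. Correlations over livers used log2 CPM with a prior count of 2 and 100000 permutations, two-sided, in Python 3.11.15 with numpy 2.4.6. On simulated counts with 200 genes changed by a log2 fold change of 2, the test recovered 166, 161 and 160 of them with 7, 17 and 7 false calls in GB-IL against DIO, RYGB against DIO and GB-IL against RYGB. These counts were drawn with the same spread per gene in all groups, whereas the GB-IL livers varied more than the others. Smaller changes, the size of most enzyme differences here, were not simulated, so the power to find them is not known. All 10 members were named. Of the other lists the rule names Nr1h4, Nr0b2, Fgfr4, Klb and Cyp2c70, up to 3 called genes per list and direction, and the 3 genes most like Cyp7a1, Cyp8b1 and Cyp7b1; others were chosen after their values were seen. The alternatives were RLE scaling, scaling on hepatocyte genes, DESeq2, voom with quality weights, no filter, a block by replicate number, 2 groups only, and each liver left out. Depth between 18223135 and 28656631 counts per liver put at least 54 counts behind every member's value. P-values measure the spread between these livers.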

Additional observations from a re-analysis of the deposited data

Results flagged for a closer look

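In RYGB liver 5 Hsd3b7, at 177 CPM, was far below the other 4 RYGB livers, with a gap to the next of 0.712 of the group's whole range, above Dixon's critical value of 0.71 for 5 samples. Amacr in the same liver, at 75.2 CPM, stood 0.72 of the range below the next. Among 30 groups of livers examined, 3 per enzyme, these were the 2 found, and chance gives about 1 in 20. RYGB liver 5 was also the lowest of its group for Cyp8b1, Cyp27a1, Cyp7b1, Slc27a5 and Baat, with smaller gaps.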

How the results depend on the processing

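The fold changes of the 10 enzymes in 3 comparisons were recomputed 630 times over the alternatives. Of these, 617 kept their sign and their side of the threshold, 5 passed it, and 8 changed sign. With scaling on hepatocyte genes, which moves the median of all genes from 0.04 to 0.35 for GB-IL against DIO, Cyp27a1 went to 0.015 and Slc27a5 to 0.19 on the log2 scale, both still below that median, Cyp27a1 against RYGB went to 0.045 and Baat for RYGB against DIO to 0.0014. Voom put Cyp39a1 at -0.16 for GB-IL against DIO and Cyp7a1 at -0.33 for RYGB against DIO. With 1 liver left out, GB-IL against DIO ranged from -1.01 to -0.43 for Amacr and from -0.55 to -0.15 for Baat, and RYGB against DIO ranged from -0.14 (without RYGB liver 1) to 0.68 for Cyp7a1 and from -0.20 to 0.044 (without RYGB liver 5) for Baat. None of the 8 was called before or after; the cause was not tested.

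The count of enzymes called, 0 in each comparison, became 1 by voom for RYGB against DIO and 1 by DESeq2 for GB-IL against RYGB, and with 1 liver left out ranged from 0 to 1 for GB-IL against DIO and from 0 to 2 for GB-IL against RYGB, the highest each time without GB-IL liver 4. The 45 further pathway genes gave, for GB-IL against DIO, 6 calls with hepatocyte scaling, 2 without the filter, 1 by voom, 6 by DESeq2 and 0 to 16 with 1 liver left out. For RYGB against DIO voom gave 5. For GB-IL against RYGB there were 3 with hepatocyte scaling, 1 without the filter, 4 by DESeq2 and 0 to 9 with 1 liver left out. Over all genes the 465 called for GB-IL against DIO became 2734 with hepatocyte scaling, 1347 by DESeq2, 0 with the 2 groups only, and 0 to 3572 with 1 liver left out. The 0 of RYGB against DIO became 33 with 2 groups only, 1690 by voom, 94 by DESeq2 and 0 to 5 with 1 liver left out. The 0 of GB-IL against RYGB became 1476 with hepatocyte scaling, 51 without the filter, 115 by voom, 884 by DESeq2 and 0 to 3120 with 1 liver left out.

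Same-numbered livers of different groups did not deviate together (correlations from -0.38 to 0.38, 2 of 13 above 0.1), so the numbers do not pair the livers. With the replicate number as a block 1 gene was called for GB-IL against DIO and 0 in the other comparisons, and 0 enzymes in each. The levels per length and the ratios moved by less than 1 SD under their alternatives. With 4 GB-IL livers that differ this much, the 95% interval of Cyp7a1 for GB-IL against DIO runs from -2.54 to 1.25 in log2. True differences anywhere between these bounds, whether a fall, none or a rise, are compatible with these data.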

Other observations

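Cux2, a female-biased transcription factor of mouse liver, stood at 25.4, 19.4, 0.212 and 0.443 CPM in GB-IL livers 1 to 4, at 25.1, 0.296, 0.387, 0.331 and 27 CPM in RYGB livers 1 to 5, and at most at 1.03 CPM in DIO. It was thus high in GB-IL livers 1 and 2 and RYGB livers 1 and 5, the livers with the highest Cyp39a1. Of these, RYGB liver 1 had 0 enzymes below the DIO range and 4 above it. Mup20, a male-biased urinary protein gene, stood at 56.0, 42.4, 809 and 1295 CPM in GB-IL livers 1 to 4, at 287, 4421, 3167, 3530 and 275 CPM in RYGB livers 1 to 5, and from 1823 to 4591 CPM in DIO, lowest in the same 4 livers. Both genes were chosen after their values were seen. The list of 13 female-biased genes did not follow Cux2 throughout. Of its 8 tested members 4 were above and 4 below 0 for GB-IL against DIO and none was called. Cux2 was called higher and Hao2 lower without GB-IL liver 4. The summed level of the list in GB-IL liver 1, 211 CPM, was inside the DIO range of 111 to 520.1 CPM. In GB-IL liver 2 and RYGB livers 1 and 5 it was above that range, at 935, 1003 and 1055 CPM. Of 12 male-biased genes 11 were below 0 for GB-IL against DIO and none was called, or 4 lower without GB-IL liver 4. They summed to 1262, 1325, 3820 and 7079 CPM in GB-IL livers 1 to 4, and to 2418 and 1777 CPM in RYGB livers 1 and 5. The DIO range was 7951 to 16103 CPM. All mice were male by the study's methods, and 4 Y-linked genes were above 0 in each of the 14 livers, at 2.48 CPM or more.

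Of the list for bile acid and oxysterol sulfation only 1 gene was abundant enough to be tested. Sult2a1 stood at 3.47 and 21.2 CPM in GB-IL livers 1 and 2 and at most at 0.111 CPM in every other liver. The Sult2a genes are near-identical copies, so the counts of single members are uncertain.

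Por is the reductase that feeds electrons to most of the cytochrome P450 enzymes of this pathway. It stood at 1935, 1404, 695 and 284 CPM in GB-IL livers 1 to 4. Its range was 169 to 969 CPM in DIO and 162 to 570.2 CPM in RYGB. It was highest in the GB-IL livers where Cyp7a1, Cyp7b1, Akr1d1 and Amacr were lowest. The log2 fold change of Por was 0.85 (adjusted p = 0.363, edgeR) for GB-IL against DIO and 1.83 (adjusted p = 0.119) for GB-IL against RYGB, or 2.14 (adjusted p = 0.0178) without GB-IL liver 4.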
